A study of Homo sapiens with 74 samples.

Results

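The genes described here are the very long genes that leukaemia cell lines K562 and HEL express. A gene was taken when the deposited tables list it on 1 chromosome and 1 strand, when its highest listed exon end lay at least 400 kb beyond its lowest listed start, and when it reached on average at least 1 CPM (counts per 1000000 counts of the library) in the controls of K562 or HEL. Of 28131 genes listed, 26563 lie at 1 locus by that definition, 509 of these span at least 400 kb, and 233 were also expressed. K562 controls expressed 161 of them and HEL controls 192, with 120 in both lines. Control levels chose the members and also enter every change against a control, so levels are given as a description. The comparison between both K562 knockouts uses no control library.

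K562 is a cell line from chronic myeloid leukaemia and HEL one from erythroleukaemia. RNA was selected for poly(A) tails and sequenced as strand-marked libraries. In K562 the groups were wild-type controls (2 distinct libraries), cells with the genotype DOT1L-/- (3 libraries) and cells with the genotype ENL-/- (3 libraries), and in HEL they were controls and DOT1L knockdown (2 libraries each). A further K562 control held the same count for every gene as control 2 and was counted with it as 1 sample. The sources used here do not say how the knockouts or the knockdown were made, whether a knockout line is 1 clone, or whether libraries of a group came from separate cultures, so p-values measure only the spread between these libraries. Labels of the K562 controls and DOT1L knockouts name a sequencing lane and those of the ENL knockouts do not, so a sequencing batch and the ENL knockout cannot be told apart.

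DOT1L is the enzyme that methylates lysine 79 of histone H3 (H3K79), a mark laid down over the first part of active genes. ENL, encoded by MLLT1, is a reader of acetylated histones that binds DOT1L and also belongs to the super elongation complex, which helps RNA polymerase II to be released into the gene body. Because a polymerase must travel the whole of a gene before it can make 1 full transcript, very long genes are the ones in which a loss of elongation is expected to weigh most, and the series is titled for a role of the complex in initiation. Poly(A) RNA measures the finished transcript and does not separate starting from travelling.

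By the rule the members are long: their median span was 545 kb, against 26.4 kb for the 13113 expressed genes under 400 kb, and 27 spanned over 1000 kb. Exonic length, which the rule did not use, had a median of 7136 bases against 3322. Exons made up 1.22% of a median member and 12.7% of a median shorter gene, a share that the choice by span largely fixes. The longest gap between listed exons had a median of 157 kb. RefSeq classes 225 as protein coding and 8 as long non-coding RNA. Chromosome 3 held 24 of them, chromosome 7 held 21, and chromosomes 1 and 10 held 19 each. CBS and NPIPB12 are long only in the deposited annotation, at 36632 and 762 kb, since RefSeq gives them 23.7 and 22.9 kb. CBS has a near-identical copy, CBSL, and its counts are uncertain. Exon bases were shared with another listed gene in 39 members, with a gene on the opposite strand in 34 and on the same strand in 6. The strand setting of the counting is not given in the sources used here, so those counts can include reads of the other gene.

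Members just inside the span limit were TNIK, a kinase, at 402 kb and MACF1, a spectraplakin that links microtubules and actin, at 403 kb, and just outside it lay HECW2 at 399 and SPATA5 at 396 kb. For the level limit in K562 controls, PKHD1 at 1.07 CPM and NAV2 at 1.11 were just inside and HMCN1 at 0.929 and TENM3 at 0.883 just outside. In HEL the inside neighbours were GPC3 and DIRC3, both at 1.06, and the outside ones TNR at 0.906 and SYN3 at 0.827.

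Very long genes were moderately expressed. The median member had 16.8 CPM in K562 controls, against 35.2 for shorter expressed genes, and 21.2 against 32.6 in HEL controls. Per kilobase of exon, SND1, a nuclease and RNA-binding protein of 440 kb, was the highest member in K562 controls at 124 CPM per kb, followed by SMYD3, a lysine methyltransferase, at 54.7 and FAF1, a ubiquitin-binding adaptor, at 50.5. In HEL controls FAF1 at 93.0 CPM per kb, ARHGAP15, a Rac GTPase-activating protein, at 92.8 and SND1 at 91.6 were nearly level, and LTBP1, which stores latent TGF-beta in the matrix, followed at 84.7. ARHGAP15 stood at 2.04 CPM per kb in K562 controls. The tables of both lines were scaled separately, so levels set across lines are approximate. Together the members took 0.548 and 0.571% of all counts in the K562 controls, 0.569 to 0.593% after DOT1L knockout, and 0.484 to 0.519% after ENL knockout. In HEL the share was about 0.937% in both controls and 0.861 and 0.840% after knockdown.

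Libraries held 15404944 to 29236703 fragments in K562 and 12151495 to 12811688 reads in HEL. DOT1L itself had 270 and 256 CPM in the K562 controls and 186, 176 and 184 in the DOT1L knockouts, a log2 change of -0.53 (adjusted p = 4.09e-06, edgeR's quasi-likelihood test), and 97.5 and 87.4 CPM in HEL controls against 29.1 and 30.0 after knockdown (-1.64, adjusted p = 2.22e-28). MLLT1 was at 214 and 219 CPM in controls and at 153, 157 and 154 in ENL knockouts (-0.48, adjusted p = 5.26e-06). Transcripts of both knocked-out genes were lowered and still present, and a knockout can leave an RNA that makes no protein. All 16 erythroid marker genes were present in K562, with a summed level of 7331 to 7905 CPM in controls, 11754 to 12427 after DOT1L knockout and 9562 to 9853 after ENL knockout. Of 8 megakaryocyte markers K562 controls expressed 2, with a sum of 7.35 to 9.93 CPM in controls, 33.3 to 35.1 after DOT1L knockout and 29.5 to 36.9 after ENL knockout, and HEL controls expressed 7. Summed T cell markers (5 genes) were at 78.5 to 78.8, 19.8 to 24.8 and 116 to 127 CPM in the K562 groups in that order, with CD8A at 0 in all of them. Summed monocyte markers (6 genes) were at 33.2 to 36.1 CPM in K562 controls, 291.8 to 324 after DOT1L knockout and 19.6 to 20.7 after ENL knockout. Their part in the results below was not tested.

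**Figure D1:**
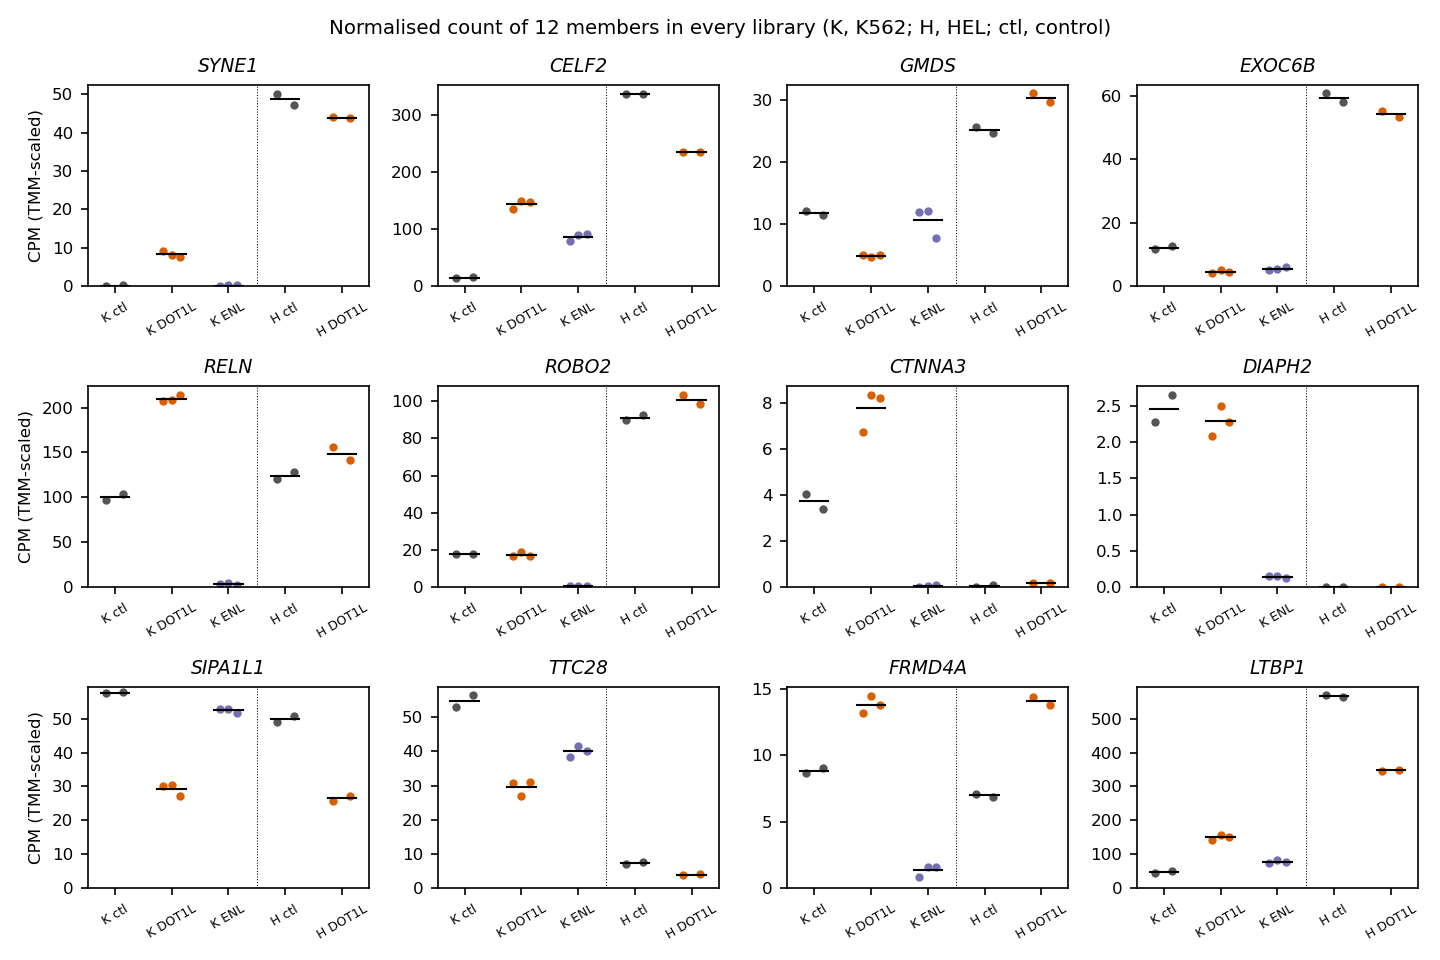
Points are the normalised count (CPM, axes from 0) of 12 members in each library, with 2 or 3 libraries a group, and lines are group means. SIPA1L1 is lower in both DOT1L-depleted groups, while LTBP1 is higher in K562 and lower in HEL after DOT1L depletion, and RELN is close to 0 after ENL knockout.

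The first question is what loss of DOT1L did to very long transcripts in K562. They moved in both directions: ARHGAP15, CELF2, ROBO1 and DOCK2 rose, while MYO16 and ZFPM2 fell. In a list of 12 metabolic, glycosylation, lipid transport and mitochondrial genes 10 fell, where 24.2% of all genes tested were called lower. Of 161 members expressed in K562 controls, 105 passed an adjusted p of 0.05 (Benjamini-Hochberg over 14301 genes), 51 higher and 54 lower. The share, 65.2%, stands beside 51.1% of all genes tested and 58.5% of expressed genes of 200 to 400 kb. The median log2 change of the 161 was -0.001, against -0.027 for shorter genes, and the median size of the change without its sign was 0.41 against 0.24. A change of at least 2-fold was called for 25 members upward and 12 downward, where 11.7 and 4.09% of all genes tested and 5.26 and 4.08% of shorter expressed genes were called up and down at that size.

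ARHGAP15 had 3.21 and 3.97 CPM in the controls and 37.9, 40.8 and 40.0 after DOT1L knockout, a log2 change of 3.46 ± 0.15 (SE, adjusted p = 7.84e-10). CELF2, an RNA-binding regulator of splicing, had 13.5 and 15.4 CPM in controls and 135, 150 and 148 after knockout (3.32 ± 0.10, adjusted p = 2.09e-11). ROBO1, a receptor for Slit guidance cues, had 3.12 and 4.16 CPM in controls and 28.9, 29.0 and 30.1 after knockout (3.01 ± 0.16, adjusted p = 2.91e-09). In each of these the lowest knockout library lay several times above the highest control. DOCK2, an activator of Rac in blood cells, went from 20.04 and 19.8 CPM to 108, 109 and 107 (2.44 ± 0.10). ITPR2, a calcium channel of the endoplasmic reticulum, went from 5.67 and 4.63 CPM to 28.5, 27.2 and 27.8 (2.43 ± 0.11). LTBP1 rose from 45.2 and 50.1 CPM to 142, 157 and 152 (1.66 ± 0.07). These genes reached a new level that the knockout libraries shared closely.

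MYO16, an unconventional myosin, fell most among the members named by size, from 32.5 and 34.7 CPM in controls to 5.86, 5.07 and 6.82 (log2 change -2.52 ± 0.11, adjusted p = 8.82e-10 by edgeR's quasi-likelihood test). ZFPM2, a cofactor of GATA factors, fell from 42.7 and 46.8 CPM to 12.2, 14.3 and 14.9 (-1.70 ± 0.10). EXOC6B, a subunit of the exocyst that tethers secretory vesicles, fell from 11.6 and 12.5 to 4.00, 5.00 and 4.45 (-1.42 ± 0.13). GMDS, an enzyme of GDP-fucose synthesis, fell from 12.1 and 11.5 to 5.00, 4.63 and 5.02 (-1.28 ± 0.16). The groups did not overlap in any of the 105 called members, but they were also separate in 122 of all 161. With 2 and 3 libraries groups can separate without a change, so this adds little to the calls. Separation was not counted over all genes tested, so it is not read as a trait of very long genes. Falls of EYS (-1.22), ULK4, a pseudokinase of the autophagy-kinase family (-1.15), TMTC2 (-1.15) and FGF13, an intracellular partner of sodium channels (-1.10), completed the 8 largest. MACF1, with 426 and 420 CPM in controls, was among the most abundant that fell and had 251, 209 and 244 CPM after knockout (-0.85 ± 0.09, adjusted p = 2.92e-06).

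Members with less than 1 CPM in K562 controls, which belong to the set through HEL, are kept apart because of the filter on low counts. Those with few control counts passed it only if another K562 group was high. Others could pass on controls alone, such as RYR2 and FRAS1 with 36 and 25 counts over both controls. Of 25 members under 1 CPM tested, 18 were called higher after DOT1L knockout and 0 lower by edgeR (0 also at an unadjusted p under 0.05 and 0 by DESeq2), a direction that the filter in large part fixes. After ENL knockout 2 of the 25 were higher and 6 lower, and in HEL 3 of 5 such genes were higher. NLGN1, a postsynaptic adhesion protein, had 1 count over both K562 controls and 3.45, 3.78 and 3.17 CPM in the knockouts, a ratio of 149.5 with a 95% counting interval from 26.6 to 5929. SYNE1, which anchors nuclei to the cytoskeleton, had 0.0465 and 0.189 CPM in controls and 9.22, 8.14 and 7.53 after knockout (log2 change 6.08 ± 0.33). DACH1, a transcriptional corepressor (5.57 ± 0.24), KLF12, a Kruppel-like repressor (5.04 ± 0.32), and KCNAB1, a potassium channel subunit (3.74 ± 0.41), had at most 0.279 CPM in either control. HEL controls expressed these genes: SYNE1 stood at 50.1 and 47.3 CPM there.

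ENL knockout moved very long genes mainly downward, and RELN, ROBO2, GABBR2 and CTNNA3, genes of neuronal guidance, signalling and adhesion, were almost lost. Of the same 161 members 87 (54.0%) were called, 21 higher and 66 lower, beside 41% of all genes tested and 44.2% of shorter genes expressed in K562 controls. Lower calls made up 41.0% of members, 22.2% of all genes tested and 23.6% of the shorter genes. Expressed genes of 200 to 400 kb had 54.7% called and 35.3% lower, so the excess was not particular to genes over 400 kb. The median log2 change was -0.14 against 0.01, with 36 members down and 4 up by at least 2-fold. At that size 8.11% of all genes tested and 6.81% of shorter expressed genes were called down, and 2.89 and 1.73% up. For members of at least 500 kb the median was -0.26. Both K562 knockout comparisons use the same control libraries, so their values are given side by side and not correlated.

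RELN, a secreted glycoprotein that guides neuronal positioning, had 96.9 and 104 CPM in controls and 3.86, 4.67 and 2.02 after ENL knockout (log2 change -4.79 ± 0.14, adjusted p = 3.08e-11, edgeR's quasi-likelihood test), while DOT1L knockouts had 208, 208 and 214 (1.06 ± 0.11). ROBO2, a second Slit receptor, had 17.9 in both controls and 0.580, 0.584 and 0.391 CPM after ENL knockout (-5.07 ± 0.16), against 16.7, 18.6 and 16.5 after DOT1L knockout (-0.05 ± 0.10, adjusted p = 0.695). No ENL knockout library came near the controls in either gene. GABBR2, a subunit of the GABA-B receptor, had 15.1 and 16.5 CPM in controls and 0.773, 0.487 and 0.586 after ENL knockout (-4.66 ± 0.18). CTNNA3, an alpha-catenin of cell junctions, fell from 159 counts over both controls to 2 over all 3 ENL knockouts, a ratio of 105.5 (95% counting interval 28.7 to 879). CADPS2, a factor for dense-core vesicle release, fell from 196 counts to 6 (43.4-fold, 19.6 to 119.6), CDH18, a cadherin, from 157 to 6 (34.7-fold, 15.6 to 96.1), and PCLO, a scaffold of the presynaptic zone, by 4.54 on the log2 scale. Intervals on counts cover counting error only.

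Few very long genes rose after ENL knockout, and CELF2 was by far the first of them, with 78.3, 89.9 and 91.9 CPM against 13.5 and 15.4 in controls (2.59 ± 0.10, adjusted p = 2.6e-10). TRDN, triadin of the calcium release complex, had 3.02 and 2.65 CPM in controls and 8.41, 6.96 and 10.5 in ENL knockouts (1.59 ± 0.19, adjusted p = 1.5e-05). PLCB1, a phospholipase C (1.14 ± 0.26 in each knockout), and DLC1, known as a tumour suppressor, also rose, and without K562 control 2 the ENL call of PLCB1 was lost (adjusted p = 0.0523). DLC1 had 38.0 and 41.4 CPM in controls, 68.5, 67.2 and 65.6 after DOT1L knockout and 76.1, 83.0 and 84.1 after ENL knockout. MAST4, a microtubule-associated kinase (0.71 ± 0.08), KALRN, kalirin of neuronal spines (0.69 ± 0.10), and LTBP1 (0.69 ± 0.07) rose less, and the call of PARD3B, a polarity protein (0.84 ± 0.29, adjusted p = 0.0348), was lost with DESeq2, without K562 control 1 (adjusted p = 0.286) and without ENL knockout 2 (adjusted p = 0.17). PRKCA, a classical protein kinase C, had log2 changes of -0.00 ± 0.05 after DOT1L knockout and 0.01 ± 0.05 after ENL knockout, and neither passed.

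The knockouts were then compared with each other, a contrast in which no control library takes part. Very long genes stood higher after DOT1L loss than after ENL loss: 118 of 161 members (73.3%) were called beside 60.2% of all genes tested and 59.8% of shorter expressed genes. Of these, 77 were higher in the DOT1L knockout and 41 lower, where 31.8 and 28.3% of all genes tested were called higher and lower. The median log2 difference, DOT1L knockout minus ENL knockout, was 0.19 for members and -0.04 for shorter genes. A difference of at least 2-fold was called for 39 members with the DOT1L knockout higher and for 6 with it lower. Of all genes tested 15.4% were called higher and 3.82% lower at that size, and of shorter expressed genes 8.72 and 3.25%. The lower calls of members thus stood near the background. Other genes also had more higher than lower calls, though their share of higher calls was below that of members. RELN (5.85 ± 0.13, adjusted p = 1.07e-12), DOCK2 (4.07 ± 0.10, adjusted p = 1.31e-12), ROBO1 (5.47 ± 0.18) and ROBO2 (5.02 ± 0.15) had among the smallest adjusted p. PDE11A, a cyclic nucleotide phosphodiesterase, completed the 5: it had 17.2 and 18.3 CPM in controls, 38.9, 43.4 and 41.6 after DOT1L knockout and 4.64, 5.89 and 5.73 after ENL knockout (2.94 ± 0.10). Groups did not overlap in 125 of the 161 members, called or not, a count that was not made over all genes tested. Among the 118 called the exception was DLEU1, a non-coding RNA gene, named here after its values were seen.

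**Figure D2:**
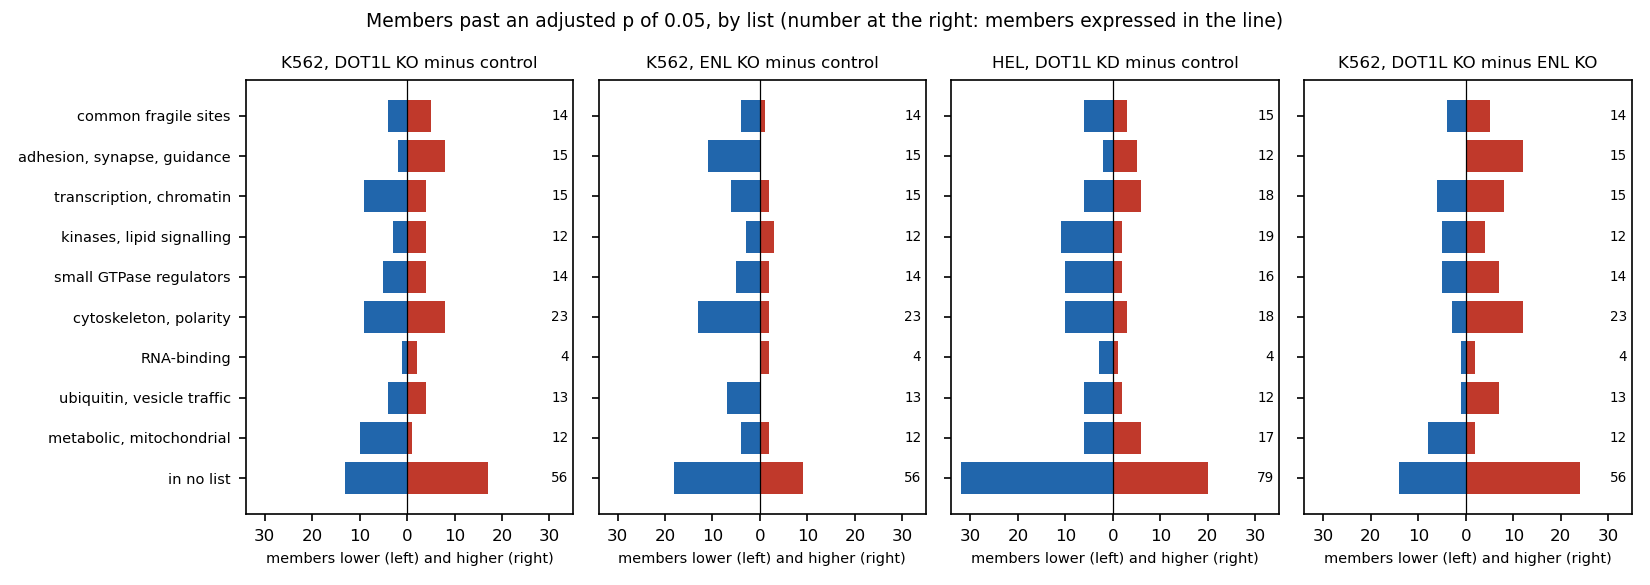
Bars count the members of each list called lower (left, blue) and higher (right, red) at an adjusted p of 0.05 in each comparison, and the number at the right is the members expressed in that line. Adhesion genes show 11 lower after ENL knockout and 12 higher in the DOT1L knockout against the ENL knockout.

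Read by role, the lists of members moved unevenly in K562. Counts by list stand beside all genes tested, of which 26.9% were called higher and 24.2% lower after DOT1L knockout, 18.8 and 22.2% after ENL knockout, and 31.8 and 28.3% between knockouts. Among 15 adhesion, synapse and guidance genes, 8 rose and 2 fell after DOT1L knockout, 0 rose and 11 fell after ENL knockout, and in the direct contrast 12 stood higher in the DOT1L knockout and 0 lower. Both counts of 0 are by edgeR and were also 0 at an unadjusted p under 0.05 and by DESeq2. Their median log2 changes were 0.66 and -1.27, and their median difference between knockouts 1.61. This list, like the others, was drawn up with earlier results of these data known and is not independent evidence of its direction. Summed levels of 5 neuronal markers, of which K562 controls expressed 2, were 6.62 to 8.18 CPM in controls, 42.9 to 51.3 after DOT1L knockout and 36.9 to 51.2 after ENL knockout, and their part in these counts was not tested. Among 12 metabolic, glycosylation, lipid transport and mitochondrial genes, 1 rose and 10 fell after DOT1L knockout (median -0.53). Those that fell include GMDS, TMTC2, ADK, the adenosine kinase (-0.66), and FTO, an RNA demethylase (-0.39). After ENL knockout 2 of that list rose and 4 fell. Cytoskeletal and polarity genes, 23 in all, split into 8 higher and 9 lower after DOT1L knockout and 2 higher and 13 lower after ENL knockout, with MAGI1, a junction scaffold (-0.80 and -1.24), and ANK3, ankyrin-G (-0.58 and -1.22), lower in both. DMD, the dystrophin gene of 2220 kb, had 15.4 and 14.5 CPM in controls, 18.1, 22.7 and 20.6 after DOT1L knockout (0.45 ± 0.13, lost without control 2 at an adjusted p of 0.0711) and 15.9, 17.8 and 21.2 after ENL knockout (0.28 ± 0.13, adjusted p = 0.0981).

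Of 15 transcription factor and chromatin genes, 4 rose and 9 fell after DOT1L knockout and 2 rose and 6 fell after ENL knockout. Of 14 small GTPase regulators, 4 rose and 5 fell, then 2 and 5, and of 12 kinases, phosphodiesterases and lipid-signalling genes, 4 rose and 3 fell, then 3 and 3. In either direction 51.1 and 41% of all genes tested were called in these comparisons. The GTPase and kinase lists were at 64.3 and 58.3% after DOT1L knockout and 50% after ENL knockout, near that for so few genes. Transcription factor and chromatin genes stood above it after DOT1L knockout, with 86.7% called and 60% lower, beside 24.2% of all genes lower. After ENL knockout 53.3% of them were called. The 13 ubiquitin and vesicle-traffic genes had 4 higher and 4 lower after DOT1L knockout and 0 and 7 after ENL knockout, where the 0 by edgeR was also 0 at an unadjusted p under 0.05 and by DESeq2. CDKAL1, a tRNA-modifying enzyme in the list of 4 RNA-related genes, fell after DOT1L knockout from 54.7 and 56.2 CPM to 26.7, 28.1 and 24.5 (-1.07 ± 0.07) and had 63.2, 64.2 and 64.3 after ENL knockout (0.21 ± 0.07, lost without either control or without ENL knockout 2 or 3). Common fragile sites are stretches that break when replication is slowed, and many lie in very long genes. Of 14 fragile-site genes 5 rose and 4 fell after DOT1L knockout and 1 rose and 4 fell after ENL knockout, a mix of ARHGAP15, CTNNA3 and GMDS with genes such as CSMD1, a complement regulator of 2060 kb (-0.10, adjusted p = 0.363, and -1.28). The 56 members in no list had 17 higher and 13 lower, then 9 and 18.

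In HEL the knockdown of DOT1L lowered more very long genes than it raised, by small amounts. Of 192 members 129 (67.2%) passed, 46 higher and 83 lower, beside 55% of all 12635 genes tested. Lower calls made up 43.2% of members, 28% of all genes tested and 29.2% of shorter expressed genes. Expressed genes of 30 to 100, 100 to 200 and 200 to 400 kb had 36.2, 37.8 and 35.6% lower. The median log2 change was -0.15 against -0.00 for shorter genes, and 8 members in each direction changed by at least 2-fold. At that size 3.37 and 2.47% of all genes tested were called up and down, and 1.8 and 2.52% of shorter expressed genes. Under upper-quartile scaling the median was -0.08, and that of shorter genes 0.07. HEL has 2 libraries a group, so the spread rests on 2 residual degrees of freedom shared over all genes.

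FRAS1, an extracellular matrix protein, had 51.4 and 54.2 CPM in HEL controls and 17.7 and 21.1 after knockdown (log2 change -1.45 ± 0.08, adjusted p = 1.18e-21, edgeR's quasi-likelihood test). GRIK4, a kainate receptor subunit, went from 24.9 and 25.7 CPM to 12.1 and 10.2 (-1.18 ± 0.11). SLC9A9, an endosomal sodium-proton exchanger, went from 9.35 and 11.0 to 3.74 and 3.01 (-1.59 ± 0.18). COL25A1, a membrane collagen, went from 19.2 and 20.2 to 8.99 and 10.0 (-1.05 ± 0.12). AFF2, a relative of super elongation complex scaffolds, had 3.12 and 3.10 CPM in controls and 0.557 and 1.14 after knockdown (-1.87 ± 0.33). STK32B, a kinase, ATP8A2, a lipid flippase, and SGCZ, a sarcoglycan, fell by 1.36, 1.21 and 1.00. In the other direction PALLD, palladin of actin bundles, had 1.52 and 2.38 CPM in controls and 7.16 and 7.56 after knockdown (1.91 ± 0.22), and NKAIN2, a sodium-pump interacting protein, had 7.27 and 6.03 and then 16.2 and 15.5 (1.25 ± 0.14). PLCB4 (14.9 and 15.0 CPM, then 30.9 and 28.9), PATJ (1.44 and 0.953, then 5.33 and 4.47), SLC44A5 (1.88 ± 0.24) and GRIP1 (1.18 ± 0.21) also rose. PTPRD, a receptor phosphatase and at 2298 kb one of the longest members, rose from 94.8 and 90.7 CPM to 126 and 122 (0.42 ± 0.05).

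Several abundant very long transcripts of HEL fell by less than 2-fold, and MACF1 did not pass, with 478 and 488 CPM in controls and 481 and 456 after knockdown (-0.04 ± 0.03, adjusted p = 0.231). LTBP1 had 569 and 565 CPM in controls and 347 and 348 after knockdown (-0.71 ± 0.03, adjusted p = 1.49e-26), and CELF2 had 338 and 337 and then 235 in both (-0.52 ± 0.03). TBC1D5, a Rab GTPase-activating protein, went from 227 and 239 to 172 and 156 (-0.51 ± 0.04), and FAF1 from 233 and 248 to 206 and 203 (-0.23 ± 0.04). Among lists of members, 2 rose and 11 fell among 19 kinases, phosphatases and lipid-signalling genes (median -0.26), and 2 rose and 10 fell among 16 small GTPase regulators (median -0.23). Among 18 cytoskeletal genes 3 rose and 10 fell, among 12 vesicle-traffic genes 2 and 6, and among 15 fragile-site genes 3 and 6. Of all genes tested in HEL 27% were called higher and 28% lower, and 55% in either direction. Fragile-site genes had 60% called and 40% lower, near that for so few genes. Vesicle-traffic genes had 66.7% called and 50% lower, and cytoskeletal genes 72.2 and 55.6%. Adhesion genes rose in 5 and fell in 2 of 12, and transcription factors and metabolic genes split evenly, with 6 and 6 of 18 and 6 and 6 of 17. Summed erythroid markers were 7288 to 7398 CPM in HEL controls and 10269 to 10952 after knockdown, and summed megakaryocyte markers 2619 to 2672 and 2078 to 2082. Their part in these changes was not tested.

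**Figure D3:**
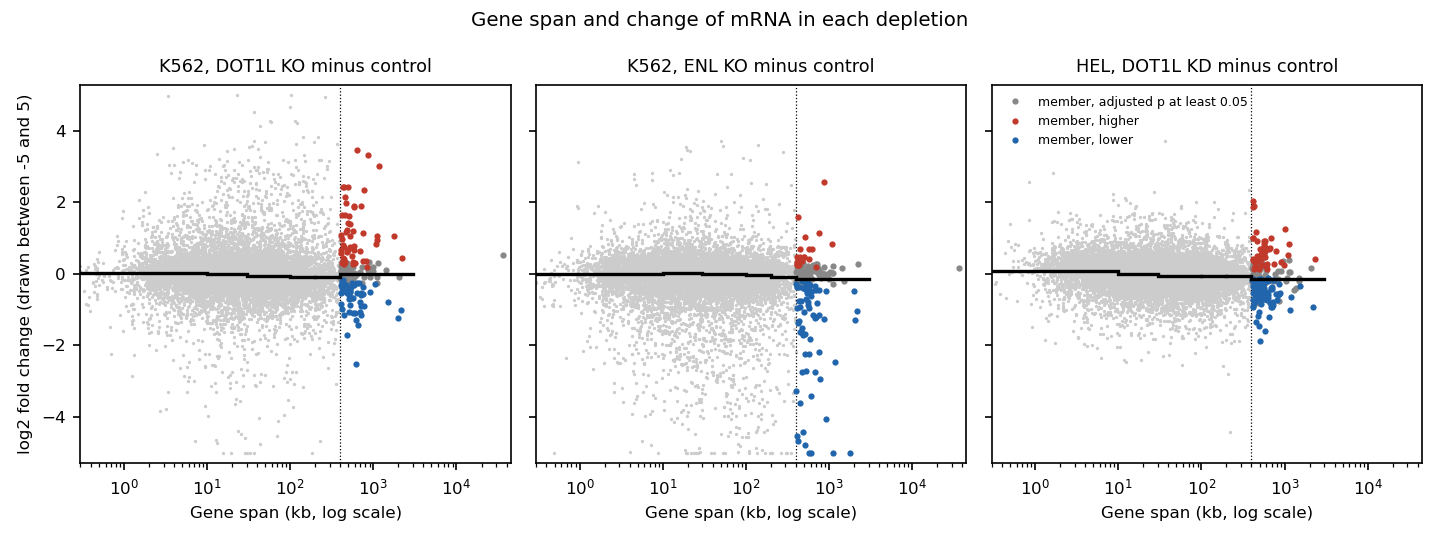
Each point is a gene expressed in the controls, by span (kb, log axis) and log2 change (values beyond the axis are drawn at its edge), with members of at least 400 kb coloured by call and black lines at the median of each span class. The line steps down to -0.14 for members after ENL knockout and to -0.15 after HEL knockdown, and is at -0.001 after DOT1L knockout.

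Dependence on length was then read across all expressed genes. After ENL knockout the median log2 change by span was 0.01 under 10 kb, 0.02 from 10 to 30 kb, 0.01 from 30 to 100 kb, -0.03 from 100 to 200 kb, -0.08 from 200 to 400 kb and -0.14 from 400 kb on. After DOT1L knockout it was 0.02, -0.01, -0.05, -0.08 and -0.09 up to 400 kb, and for the very long genes it was back at -0.001. After knockdown in HEL it was 0.09, 0.01, -0.05, -0.07 and -0.06, and then -0.15. These are descriptions over genes, which share libraries and are not replicates. Within the very long genes Spearman's rank correlation between span and log2 change was -0.02 for DOT1L knockout and -0.09 for ENL knockout over 161 genes and -0.05 for HEL knockdown over 192. Medians from 400 to 600, from 600 to 1000 and over 1000 kb were 0.03, -0.10 and 0.21 for DOT1L knockout (106, 39 and 16 genes), -0.12, -0.14 and -0.09 for ENL knockout (-0.26 over all members of at least 500 kb), and -0.12, -0.21 and -0.11 for HEL knockdown (131, 43 and 18 genes).

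The level in controls went with the change after DOT1L knockout more closely than span did, with a rank correlation of -0.39 over 161 members, against 0.12 after ENL knockout and -0.16 in HEL. A gene's control level enters its own fold change, so a negative value arises in part by construction. The median after DOT1L knockout differed with the choice of members. It was -0.16 for members with at least 5 CPM in the controls and 0.10 when members were chosen by their mean over all libraries. Of those with at least 5 CPM, 29 were called higher and 52 lower. Of all genes tested 26.9 and 24.2% were called higher and lower, and of shorter genes with at least 1 CPM 23.1 and 27.8%. Shares of shorter genes with at least 5 CPM are not given here. Exonic length, which sets how many counts a transcript gives, had a rank correlation of 0.13, -0.24 and -0.09 with the change in the same order.

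**Figure D4:**
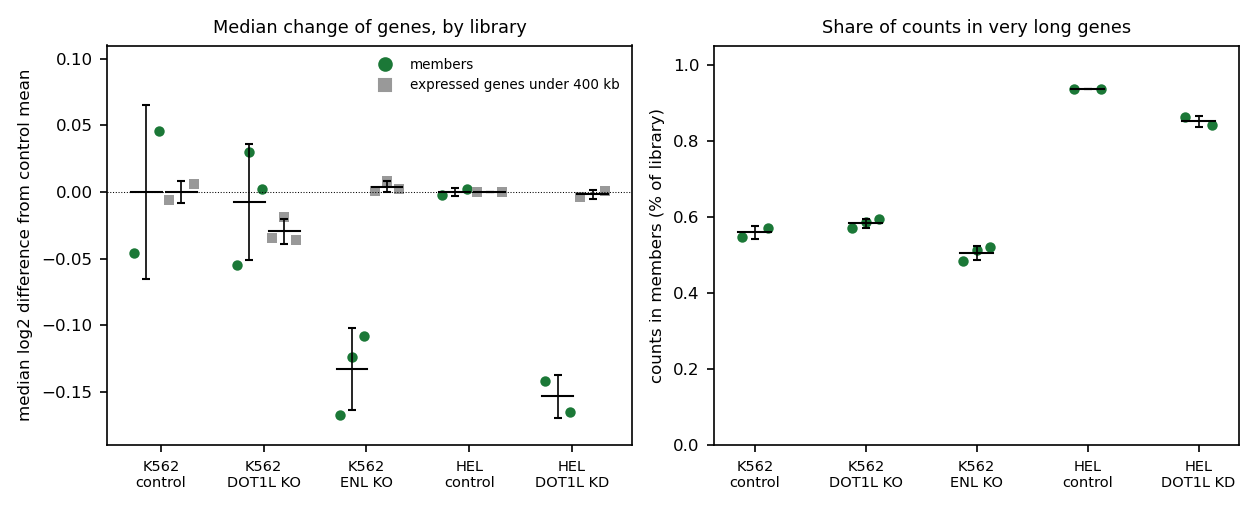
Left, each point is 1 library's median log2 difference from the control mean, for members (green circles) and for expressed genes under 400 kb (grey squares). Right, each point is the percent of a library's counts that fall in members, lines are group means and error bars are SD of 2 or 3 libraries in both panels: ENL knockouts at -0.17 to -0.11 and HEL knockdowns at -0.14 and -0.17 lie below their controls.

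Library by library, the median member stood at -0.05 and 0.05 in the K562 controls on a log2 scale centred on the controls. DOT1L knockouts had -0.055, 0.03 and 0.002, the first just below the lower control (-0.046) and the others between the controls. ENL knockouts had -0.17, -0.12 and -0.11, all below both controls. HEL controls had -0.00 and 0.00, and the knockdown libraries -0.14 and -0.17. Genes known to help elongation moved in both directions in every comparison: of 38 listed factors 4 rose and 8 fell after DOT1L knockout, 7 rose and 5 fell after ENL knockout, and 9 rose and 11 fell among 37 tested in HEL, where TOP1, the topoisomerase that relieves torsion ahead of polymerase, had a log2 change of -1.11. Of all genes tested 51.1, 41 and 55% were called in these comparisons, so the factors were called at or below the background.

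**Figure D5:**
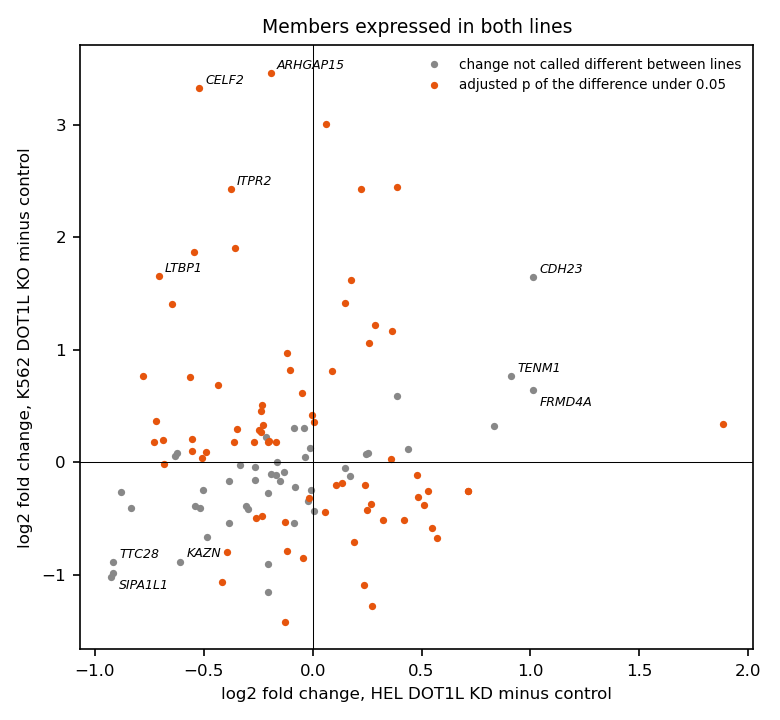
Each point is 1 of 120 members expressed in both lines, by log2 change in HEL (horizontal) and in K562 (vertical) after DOT1L depletion, and orange marks the 73 whose change differed between lines at an adjusted p of 0.05. CELF2, ARHGAP15, ITPR2 and LTBP1 lie at the upper left, and SIPA1L1, TTC28 and KAZN at the lower left.

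The same enzyme was depleted in both lines, as a knockout in K562 and a knockdown in HEL, and 120 members were expressed in the controls of both. In K562, 79 of these were called and in HEL 85, where 51.1 and 55% of all genes tested were called. In both lines 54 (45%) were called, against 29.6% of 10356 shorter genes. Of the 54, 9 were higher in both, 17 lower in both, 17 higher in K562 and lower in HEL, and 11 the reverse. So 48.1% went the same way, against 58.4% of 3067 shorter genes called in both lines. Spearman's rank correlation between the changes of both lines was 0.03 over the 120 members and 0.10 over shorter genes, with line, depth and kind of depletion shared by all points. In a joint fit, the change differed between lines for 73 of 120 members (60.8%), 43 more positive in K562 and 30 more positive in HEL, beside 38.9% of all 15367 genes tested and 48.3% of shorter genes expressed in both lines, 21.9% of which were more positive in K562 and 26.4% in HEL. The 30 members more positive in HEL are 25% of 120, near that background. Among genes of 200 to 400 kb expressed in both lines the change differed for 56.9%. Cell line cannot be told apart there from knockout against knockdown or from fragments against reads.

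Genes with the smallest adjusted p for that difference and opposite signs had more CPM in HEL controls than in K562 controls. Both control levels enter the difference by which these genes were picked, so this can arise in part from the choice. CELF2 rose in K562 and fell in HEL, a difference of 3.83 ± 0.09 (adjusted p = 1.94e-17), and LTBP1 did the same (2.35 ± 0.08). ARHGAP15 had 158 and 169 CPM in HEL controls and 144 and 141 after knockdown (-0.19 ± 0.04), a difference of 3.64 ± 0.12 from K562. ITPR2 had 79.6 and 83.0 CPM in HEL controls and 63.4 and 61.9 after knockdown (-0.38 ± 0.05, difference 2.79 ± 0.12). SYNE1 differed by 6.19 ± 0.32, but it is not among the members expressed in both lines. It had 5 counts over both K562 controls and passed the filter in K562 through the DOT1L knockouts. The filter thus in large part fixed the direction of its K562 change, which enters the difference. The small fall of SYNE1 in HEL (-0.15, adjusted p = 0.0496) was lost with DESeq2 and with library size or upper-quartile scaling. That fall was also lost without either knockdown library or control 1. After DOT1L loss, K562 levels of LTBP1, ARHGAP15, CELF2 and ITPR2 were still below those of HEL controls, which come from a separately scaled table.

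SIPA1L1, a Rap GTPase-activating protein of synapses that spans 421 kb on chromosome 14 (71320470 to 71741229, plus strand), fell by nearly the same amount in both lines. It had 57.6 and 57.9 CPM in K562 controls, 30.1, 30.5 and 27.0 after DOT1L knockout and 52.9, 52.9 and 51.8 after ENL knockout. In HEL it had 49.1 and 50.6 CPM and 25.6 and 27.2 after knockdown. The log2 changes were -0.98 ± 0.07 in K562 and -0.92 ± 0.07 in HEL, and their difference was -0.08 ± 0.11 (adjusted p = 0.623). TTC28, a centrosome and midbody protein, had 52.9 and 56.4 CPM in K562 controls, 30.8, 26.9 and 30.9 after DOT1L knockout, 7.11 and 7.62 in HEL controls and 3.82 and 3.99 after knockdown (-0.89 ± 0.08 and -0.92 ± 0.19), and it shares exon bases with TTC28-AS1. KAZN, kazrin of cell junctions, fell from 20.6 and 22.8 CPM to 13.2, 9.59 and 12.8 in K562 and from 32.8 and 32.7 to 20.7 and 22.3 in HEL (-0.88 ± 0.13 and -0.61 ± 0.09), and was lower still after ENL knockout, at 4.93, 4.87 and 3.78.

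TENM1, a teneurin adhesion receptor, rose in both lines, from 19.6 and 21.0 CPM to 32.9, 33.5 and 37.3 in K562 and from 8.15 and 7.86 to 16.6 and 13.5 in HEL (0.77 ± 0.10 and 0.91 ± 0.13). FRMD4A, a polarity scaffold, rose from 8.65 and 9.03 CPM to 13.2, 14.5 and 13.8 and from 7.11 and 6.83 to 14.4 and 13.7 (0.65 ± 0.14 and 1.01 ± 0.14), while ENL knockouts had 0.821, 1.61 and 1.56. CDH23, a cadherin, rose from 1.07 and 1.61 CPM to 4.63, 3.41 and 4.64 and from 1.68 and 2.46 to 4.06 and 4.31 (1.64 ± 0.25 and 1.01 ± 0.25), while ENL knockouts had 0.435, 0.681 and 0.391 (-1.38 ± 0.36, lost without K562 control 2 at an adjusted p of 0.0950). MEF2C-AS1, which shares exon bases with MEF2C (2.90 ± 0.28 and 0.64 ± 0.24), and MCC (0.87 ± 0.33 and 0.93 ± 0.16) also rose in both, with the HEL call of the first lost with DESeq2 and without HEL knockdown 1 or control 1, and the K562 call of the second lost with DESeq2 and without any library of either group except DOT1L knockout 1. DLG2, a synaptic scaffold of 2173 kb, had log2 changes of -1.02 ± 0.33 after DOT1L knockout, -1.03 ± 0.35 after ENL knockout and -0.93 ± 0.25 in HEL, each lost with DESeq2. Leaving out K562 control 1 also ended both K562 calls of DLG2, as did leaving out DOT1L knockout 1 or 2 for the first and ENL knockout 3 for the second.

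H3K79 methylation is laid down from near the start of a gene, so the promoters of 4 genes that moved the same way in both lines are printed, 2 that fell and 2 that rose. Each is the RefSeq window (GRCh38.p14) from 250 bases before to 50 after the gene's start, 5′ to 3′ on the gene's strand, with every CpG in capitals. SIPA1L1 is at chr14:71320226-71320525 on the plus strand, KAZN at chr1:14598435-14598734 on the plus strand, CDH23 at chr10:71396670-71396969 on the plus strand and TENM1 at chrX:124963768-124964067 on the minus strand.
SIPA1L1: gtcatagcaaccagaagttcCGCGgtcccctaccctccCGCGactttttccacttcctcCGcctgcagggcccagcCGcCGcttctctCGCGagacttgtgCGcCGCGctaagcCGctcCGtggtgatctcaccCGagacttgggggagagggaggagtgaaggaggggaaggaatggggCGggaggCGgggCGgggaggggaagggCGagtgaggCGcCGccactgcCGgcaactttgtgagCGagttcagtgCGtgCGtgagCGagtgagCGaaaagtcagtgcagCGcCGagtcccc
KAZN: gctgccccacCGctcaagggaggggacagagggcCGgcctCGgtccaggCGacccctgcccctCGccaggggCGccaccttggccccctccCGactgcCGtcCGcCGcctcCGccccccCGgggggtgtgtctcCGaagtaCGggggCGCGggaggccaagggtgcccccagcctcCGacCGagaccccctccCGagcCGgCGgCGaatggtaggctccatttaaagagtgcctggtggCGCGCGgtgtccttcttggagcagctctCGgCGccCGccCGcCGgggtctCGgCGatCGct
CDH23: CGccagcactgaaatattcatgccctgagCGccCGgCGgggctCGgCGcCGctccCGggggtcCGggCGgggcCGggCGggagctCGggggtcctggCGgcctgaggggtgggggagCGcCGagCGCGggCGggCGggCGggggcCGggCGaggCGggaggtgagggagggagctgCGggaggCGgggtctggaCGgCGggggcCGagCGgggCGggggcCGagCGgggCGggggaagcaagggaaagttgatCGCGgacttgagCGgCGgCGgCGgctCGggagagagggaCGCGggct
TENM1: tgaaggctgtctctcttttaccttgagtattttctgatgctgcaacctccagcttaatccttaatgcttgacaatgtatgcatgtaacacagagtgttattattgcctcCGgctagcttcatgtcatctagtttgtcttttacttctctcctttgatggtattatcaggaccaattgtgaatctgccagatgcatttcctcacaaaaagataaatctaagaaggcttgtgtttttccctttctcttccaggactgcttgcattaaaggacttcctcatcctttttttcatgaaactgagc

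SIPA1L1, KAZN and CDH23 carry 29, 33 and 43 CpG in 300 bases and TENM1 carries 1. CpG-dense starts thus occur among both the falling and the rising genes printed, and TENM1 rose with a start almost free of CpG. RefSeq promoter windows matched 198 of the 233 members, and in 134 the window lay within 1 kb of the listed 5′ end. Of these 134, 98 (73.1%) were CpG rich (GC of at least 50% and at least 0.6 of the CpG that the base composition predicts), against 82.4% of 8894 shorter expressed genes and 61.5% of 15113 genes in all. CpG-rich windows were found in 20 of 31 members that rose and 19 of 26 that fell after DOT1L knockout, in 8 of 16 and 32 of 39 after ENL knockout, and in 21 of 29 and 32 of 46 in HEL. The letters TATAAA, on either strand, occurred in 8 windows (5.97%, against 5.35% of shorter expressed genes), CCAAT in 33.6% (36.7%) and CCGCCC in 66.4% (71.6%). Such matches describe letters in the window.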

How the data were processed

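Deposited tables give read counts per gene in HEL and fragment counts in K562, as the file headers and values show, with exon starts, ends, strand and exonic length. The submitters' processing notes name fastp 0.13.1, HISAT2 2.1.0, Bowtie2 2.3.4.1, featureCounts 1.6.1 and builds hg38 and hg19 for the series as a whole. Which of these made the count tables, and the strand setting, are not given in the sources used here. Identical K562 control columns were counted once. The chromatin and nascent RNA samples of the series were not analysed here.

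Members and gene lists were chosen with earlier results of these data known. Counts were filtered with filterByExpr (minimum count 10, minimum total 15), scaled by TMM and tested with edgeR 4.0.16 (quasi-likelihood, two-sided, R 4.3.3). All 8 K562 libraries entered 1 fit, the 4 HEL libraries another, and 9 libraries the joint fit for the difference between lines. P-values were adjusted (Benjamini-Hochberg) over all genes tested, with a threshold of 0.05. Levels are CPM of TMM-scaled libraries. For counts of 3 or fewer a ratio of counts with an exact (Clopper-Pearson) 95% interval is given in place of a fitted change, and such intervals cover counting error only. Promoter windows came from RefSeq by symbol.

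Genes named are, per comparison with a control, up to 8 with the largest rise and 8 with the largest fall (adjusted p under 0.05, at least 2 CPM in a group, groups not overlapping), the 5 longest, the 5 highest per exonic kb in each line, those changed alike in both lines by at least 0.5 on the log2 scale, the 5 smallest adjusted p for opposite signs and for the contrast of knockouts, neighbours of each limit, and the 3 highest of each list in K562. Alternatives were DESeq2 1.42.0, other scalings, filters, an exonic length offset, a replicate block, other limits for members, and each library left out. The scripts were tested on simulated data.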

Additional observations from a re-analysis of the deposited data

Results flagged for a closer look

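Of the 120 members expressed in both lines, 73 changed differently after DOT1L knockout in K562 than after DOT1L knockdown in HEL, by edgeR's test of the difference itself. Among named genes with opposite signs or a difference of at least 2 on the log2 scale, the K562 change minus the HEL change was 6.19 for SYNE1, which had 5 counts over both K562 controls and passed the filter there through the DOT1L knockouts, 3.83 for CELF2, 3.64 for ARHGAP15, 2.79 for ITPR2 and 2.35 for LTBP1. For the genes called higher in both lines, it was 2.24 for MEF2C-AS1 and a fitted 3.00 for NKAIN2. The K562 controls held 1 count of NKAIN2, so that fitted value depends on the prior count and is no measure of size, and the ratio of counts in K562 was 24.6 with a 95% interval from 4.19 to 996. Line, kind of depletion and counting of fragments or reads cannot be told apart in these differences.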

How the results depend on the processing

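Of 163 alternatives to the counts and medians of members, 145 stayed within 1.5 times the count or within the spread between libraries. Where an alternative changed which genes are members, the share called was compared in place of the count. Requiring a change of at least 2-fold left 37 members called after DOT1L knockout, 40 after ENL knockout, 16 in HEL, 45 between knockouts and 23 for the difference between lines. The median log2 change after DOT1L knockout became 0.066 with an exonic length offset, -0.165 for members of at least 5 CPM and 0.096 for members chosen over all libraries. After ENL knockout it became -0.260 at a span of at least 500 kb. In HEL it became -0.122 with an exonic length offset, -0.113 with library size scaling, -0.076 with upper-quartile scaling, -0.169 at 500 kb, -0.192 at 5 CPM and -0.132 over all libraries. Leaving out each library gave 90 to 102 calls after DOT1L knockout, 68 to 87 after ENL knockout, 110 to 117 in HEL, 111 to 115 between knockouts and 63 to 81 for the difference between lines, with medians of -0.047 to 0.043, -0.163 to -0.084 and -0.173 to -0.144. Adding genes also listed on other contigs, an alternative chosen after seeing the data, gave 105, 87, 130, 119 and 73 calls in the same order. The causes of these shifts were not tested.

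Pairing by replicate number was not used: deviations of same-numbered DOT1L and ENL knockouts correlated at 0.220, 0.053 and 0.095, of controls 1 and 2 with the DOT1L knockouts at 0.144 and 0.101 and with the ENL knockouts at 0.150 and 0.060, and of the HEL libraries at 0.0004. All same-numbered K562 pairs were positive, but some stood under 0.1, and DOT1L knockout 2 correlated more with ENL knockout 3 (0.071) than with ENL knockout 2. A replicate block gave 113, 93, 128 and 122 calls (DOT1L knockout, ENL knockout, HEL, between knockouts) and -0.122 for the HEL median when joined with the exonic length offset. No block was fitted for the difference between lines.

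Of 2216 alternatives to 167 named values, 2120 kept their call, 96 lost it and 0 reversed. Calls lost at least once include PARD3B, MCC, STK32B, ATP8A2 and DMD after DOT1L knockout, PARD3B, MACF1, CDKAL1, PLCB1 and CDH23 after ENL knockout, and SYNE1, GMDS, ROBO2 and CDH23 in HEL, with DLG2 in all of them. Genes of few counts are limited by depth, since 3 counts equal 0.103 to 0.195 CPM in K562 and 0.234 to 0.247 in HEL.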
